A study of Mus musculus with 9 samples.

Results

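The TNF and TNF receptor superfamilies with their adaptors were described in cultured mouse synovial fibroblasts (SFs), as 59 genes of the 49548 in the deposited tables. Members were taken by name: the genes whose symbols start with Tnfsf or Tnfrsf, Traf1 to Traf7, the ligands, receptors and signalling proteins of both families that carry other names, such as Tnf, Fas, Ngfr, Tradd and Casp8, and 1 antisense RNA of a ligand gene. The Tnfsf11, Tnfrsf11a and Tnfrsf11b genes and pseudogenes were not included. By role there were 17 ligands, 7 receptors with a death domain, 19 other receptors, 7 TRAF adaptors, 8 death domain adaptors, kinases, caspase-8, cFLIP and inhibitors of apoptosis, and the antisense RNA Tnfsf13os.

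The SFs were isolated from the ankles of mice (CBA C57BL/6J, aged 8 weeks) and were compared in 3 groups of 3 libraries: wild type (WT), hTNFtg, and hTNFtg treated ex vivo with infliximab, an antibody against human TNF, at 1 µg/mL for 48 hours. hTNFtg mice carry a human TNF transgene and develop chronic polyarthritis. Both hTNFtg groups therefore share the transgene, and all groups share the depletion of CD45+ cells at passage 1. The labels record WT and hTNFtg SFs as untreated, where the methods describe vehicle for the same time. Replicates are biological according to the methods, but neither the labels nor the methods say which replicates came from the same animals, or what drives the transgene. Human TNF has no row of its own in the mouse tables, so the transgene itself could not be used to check the labels.

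TNF superfamily ligands are mostly trimeric membrane proteins, several of which are also shed, and each binds 1 or more TNF receptor superfamily members. Receptors with a death domain, such as TNFR1 (Tnfrsf1a) and Fas, recruit TRADD or FADD and can lead either to NF-κB and MAPK signalling through RIPK1, TRAF2 and the cIAPs or to cell death through caspase-8. Many of the other receptors bind TRAF proteins directly, and TRAF3 with TRAF2 and the cIAPs restrains the noncanonical NF-κB pathway. In SFs, TNFR1 signalling is known as a driver of arthritis in the hTNFtg model. Human TNF binds mouse TNFR1 well and mouse TNFR2 (Tnfrsf1b) poorly, and infliximab binds human but not mouse TNF.

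Values are read counts per gene that the authors normalized and rounded, called normalized counts here, and each library is listed as replicate 1, 2 and 3 of its group. In 3′ sequencing each transcript is read near its end, so that a level does not scale with transcript length. The library hTNFtg replicate 1 was shallow: it held about 613348 reads and the others 3829160 to 9015697, so that 3 reads amount to 18.7 normalized counts there and to 1.60 to 3.31 elsewhere. A gene was called at the floor in a group when none of its libraries exceeded the worth of 3 reads, within the rounding of the values, so that a value of 2 in hTNFtg replicate 3 may stand for 3 or 4 reads and counts as at the floor. The 10 fibroblast markers, which include Col1a1, Col1a2 and Pdgfra, summed to 35889 to 51969 in every library, while Cd3e, Cd8a, Cd79a and Cd79b were at 0 in all. The 14 macrophage and myeloid markers were not absent: they summed to 212 to 793 in WT, 3433 to 7790 in hTNFtg and 2278 to 4722 with infliximab, and Ptprc, which encodes CD45, ranged from 0 to 3, 9 to 31 and 8 to 28. The 6 T cell markers summed to 8 to 31, the 4 B cell markers to 0 to 1, the 5 endothelial markers to 1 to 6 and the 4 neutrophil markers to 0 to 18. The 6 hepatocyte genes summed to 678 in infliximab replicate 3 and to 9 to 43 in the others. In such bulk libraries, fewer cells of a type and less RNA per cell cannot be told apart.

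Promoters are shown for Traf3, Eda2r and Tnf, which rose from WT to hTNFtg SFs, and for Tnfrsf21, which fell, because NF-κB is the best known transcription factor downstream of these receptors. These 4 windows were chosen after the matches were seen: of the 7 members that rose, 6 had an entry, and Traf3 and Eda2r held the κB letters described here while Tnf, Tnfrsf1b, Traf1 and Birc3 did not. RefSeq (GRCm38.p6) gave a promoter window of 250 bases before to 50 bases after the start for 48 of the 59 members. Capitals mark matches to 2 sets of letters searched on both strands: GGG, any 3 bases and TTCC, as in κB sites, and TATAAA, as in TATA boxes. The matches do not overlap each other in these windows.

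Traf3 (chr12:111166120-111166419, plus strand): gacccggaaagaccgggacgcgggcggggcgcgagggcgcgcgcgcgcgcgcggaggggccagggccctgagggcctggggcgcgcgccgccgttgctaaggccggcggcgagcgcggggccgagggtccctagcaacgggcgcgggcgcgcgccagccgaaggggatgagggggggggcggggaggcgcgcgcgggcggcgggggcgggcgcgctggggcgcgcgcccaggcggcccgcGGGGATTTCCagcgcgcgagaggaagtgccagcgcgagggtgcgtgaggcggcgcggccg
Eda2r (chrX:97377160-97377459, minus strand): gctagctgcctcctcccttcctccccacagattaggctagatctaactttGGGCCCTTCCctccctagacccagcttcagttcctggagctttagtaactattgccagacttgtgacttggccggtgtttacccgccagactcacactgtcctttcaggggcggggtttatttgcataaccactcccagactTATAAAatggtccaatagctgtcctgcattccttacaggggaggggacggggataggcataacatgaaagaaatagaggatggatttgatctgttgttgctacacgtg
Tnf (chr17:35201958-35202257, minus strand): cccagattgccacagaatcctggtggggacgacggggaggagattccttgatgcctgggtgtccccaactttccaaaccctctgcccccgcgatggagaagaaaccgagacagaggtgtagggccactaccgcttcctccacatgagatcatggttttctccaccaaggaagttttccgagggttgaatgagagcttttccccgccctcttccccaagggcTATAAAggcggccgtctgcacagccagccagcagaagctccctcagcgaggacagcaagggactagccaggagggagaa
Tnfrsf21 (chr17:43016305-43016604, plus strand): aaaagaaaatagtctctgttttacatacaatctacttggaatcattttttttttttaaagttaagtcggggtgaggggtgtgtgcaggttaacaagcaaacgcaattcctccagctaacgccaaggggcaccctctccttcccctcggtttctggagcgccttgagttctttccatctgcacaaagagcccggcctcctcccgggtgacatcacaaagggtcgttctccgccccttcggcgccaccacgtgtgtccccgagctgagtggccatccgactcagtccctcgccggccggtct

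GGGGATTTCC lies at positions -10 to -1 from the start in Traf3, and GGGCCCTTCC at -200 to -191 in Eda2r. TATAAA lies at -29 to -24 in Tnf and at -58 to -53 in Eda2r, and the Tnfrsf21 window holds neither set of letters. Of all 32851 RefSeq promoters of this length, 5.56% held the κB letters and 13.6% TATAAA. Counted by gene, the κB letters were in 6.31% of 27025 genes and in 8 of the 48 members (Eda2r, Ltb, Tnfrsf25, Tnfrsf9, Traf2, Traf3, Traf5 and Traf7). A further set, TGANTCA, as in AP-1 sites, was in 7.81% of promoters, in 8.97% of genes and in 6 of the 48 members. These matches describe letters in the windows only. Cd40, Cd40lg, Cd70, Tnfrsf10b, Tnfrsf22, Tnfrsf26, Tnfsf12, Tnfsf13os, Tnfsf4, Tnfsf9 and Tradd had no entry.

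The first comparison, hTNFtg with WT SFs, addresses how the TNF families differ in arthritic SFs. Tnf, Tnfrsf1b, Eda2r, Tnfrsf26, Traf1, Traf3 and Birc3 rose in hTNFtg SFs and Tnfrsf21 fell, while the receptor Tnfrsf1a and its proximal partners Tradd, Ripk1 and Traf2 did not pass the test. Groups were compared with limma after adding 1 to each normalized count and taking log2, which understates the change of low genes, and a gene passed when its unadjusted P was under 0.05 and its log2 fold change at least 1 in size. By this rule 7 of the 55 members that could be tested were raised and 2 lowered, the other one being Cd27, against 3.35% and 3.04% of the 28522 genes tested. None of the members had an adjusted p under 0.05 in limma (Benjamini-Hochberg over all genes), against 0.48% of genes, 10 were at an unadjusted P under 0.05, against 7.72%, and edgeR on approximate reads gave an adjusted p under 0.05 for 6 (Birc3, Tnf, Tnfrsf21, Tnfrsf26, Traf1 and Traf3), against 3.22% of genes. Among genes with a group mean of at least 10, 7 of 35 members were raised and 1 lowered, against 5.25% and 4.26% of genes. The groups did not overlap for 9 members that were higher in hTNFtg and 3 that were lower, against 5.63% and 5.8% of genes. Of the 55 members, 38 had a positive difference, and their median on the log2 scale was 0.33 as fitted and 0.18 with members at the floor set to their bound, where the median of all genes was -0.0034.

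**Figure D1:**
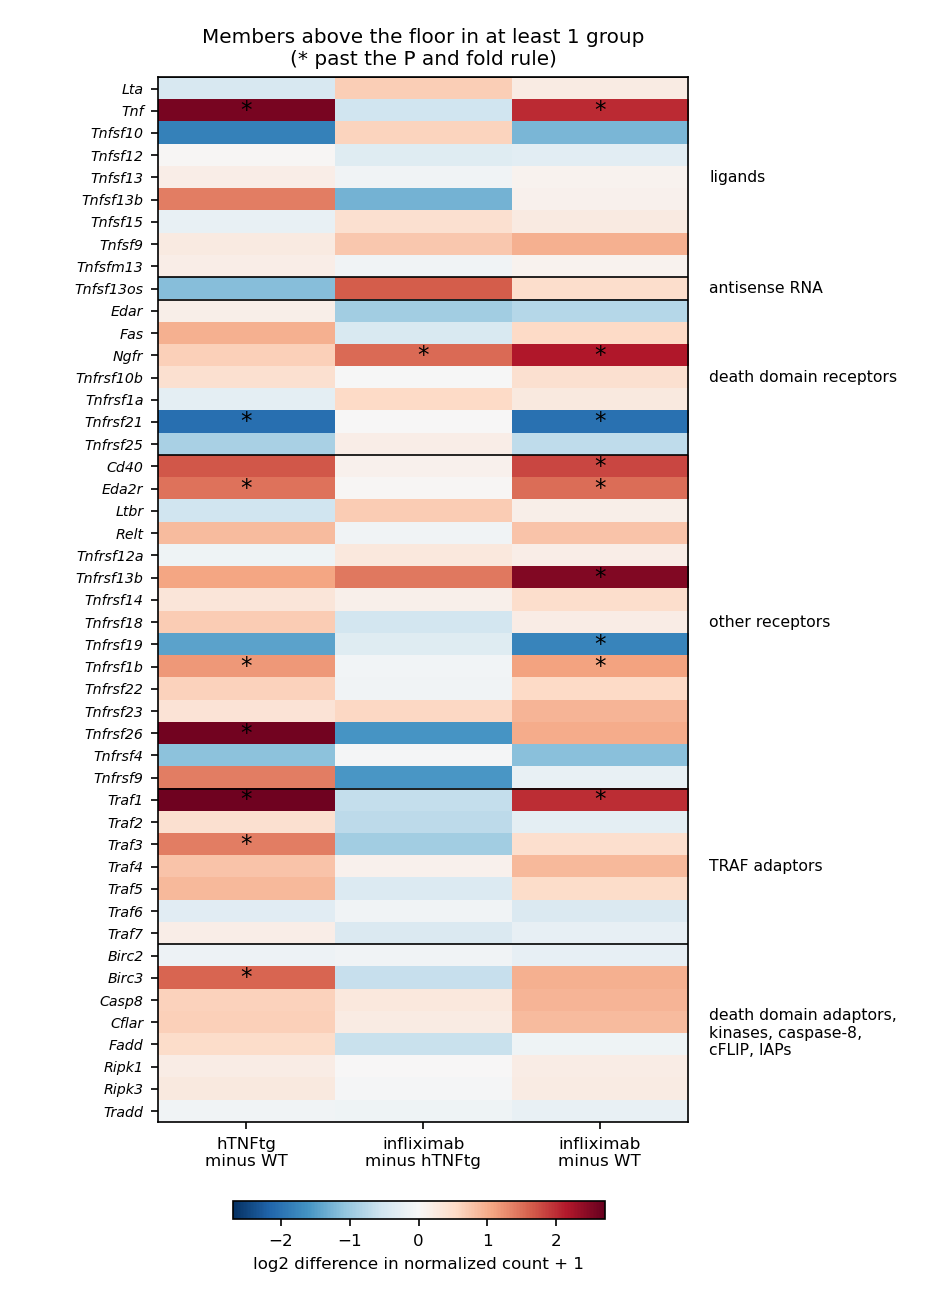
Log2 difference in normalized count plus 1 (color scale) for the 47 members above the floor in at least 1 group, in rows by role, for hTNFtg minus WT, infliximab minus hTNFtg and infliximab minus WT in columns. Stars mark the differences past the P and fold rule, which number 8 in the first column, 1 in the second and 9 in the third; of the members at the floor in all groups, only Cd27 passed the rule.

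Among the ligands, Tnf itself rose, and the rest of the family was low or did not differ past the rule. Tnf (chr17:35199381-35202007, minus strand) had 1, 4 and 7 normalized counts in WT, 25, 24 and 24 in hTNFtg and 29, 15 and 10 with infliximab. Every hTNFtg library was above every WT library, and so was every infliximab library, although the 25 counts of the shallow hTNFtg replicate 1 stand for only 4 reads. The log2 fold change from WT to hTNFtg was 2.56 (limma, SE 0.76, adjusted p = 0.254; edgeR, adjusted p = 0.0296), with group means of 4 ± 3 and 24.3 ± 0.577 (SD, n = 3 each), and it was 2.54 without hTNFtg replicate 1. Macrophages are a known source of Tnf, and the macrophage and myeloid marker sum given above was higher in every hTNFtg and infliximab library than in every WT library. Its part in the values of Tnf and of the other members that rose was not tested, nor was whether reads of the human transgene were counted at mouse Tnf.

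In all groups 8 of the 17 ligands were at the floor. Cd40lg, Cd70 and Fasl, the ligands of CD40, CD27 and Fas, had 0 counts in all 9 libraries, and Ltb, Tnfsf4, Tnfsf8, Tnfsf14 and Tnfsf18 did not exceed the floor in any, although Tnfsf14 (LIGHT) read 12, 0 and 2 in hTNFtg and 0 elsewhere. Lta ranged from 0 to 7 and Tnfsf15 from 0 to 5. Tnfsf10, which encodes the death ligand TRAIL, had 9, 8 and 7 normalized counts in WT, 0, 3 and 3 in hTNFtg and 3, 6 and 1 with infliximab, so that WT did not overlap with either group, but its log2 difference of -1.83 between hTNFtg and WT did not pass the rule (limma, SE 0.87, adjusted p = 0.681), although it did when hTNFtg replicate 1 (-1.16) or replicate 3 was left out, with quantile scaling and with all 9 libraries in a joint fit. Tnfsf12 (TWEAK) ranged from 50 to 105, Tnfsf9 (4-1BB ligand) from 11 to 49 and Tnfsf13b (BAFF) from 2 to 29, with overlapping groups. Tnfsf13 (APRIL) and the read-through gene Tnfsfm13 overlap on the genome and had the same value in every library, 37 to 120, so that they are 1 measurement, and they also overlap with Tnfsf12 and the antisense Tnfsf13os, which ranged from 0 to 10.

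Of the 7 receptors with a death domain, Tnfrsf21 fell in hTNFtg SFs and the other 6 did not pass the rule in this comparison; Ngfr is described with infliximab treatment. Tnfrsf1a (chr6:125349362-125362484, plus strand), the main receptor for TNF in SFs, had 1131, 646 and 465 normalized counts in WT, 884, 522 and 428 in hTNFtg and 961, 815 and 761 with infliximab. All groups overlapped, and the log2 difference between hTNFtg and WT was -0.26 with a 95% interval of -1.13 to 0.61 (limma, adjusted p = 0.799). Tnfrsf21 (DR6; chr17:43016555-43089188, plus strand), a receptor that can signal cell death and JNK activation, had 94, 136 and 231 normalized counts in WT, 19, 28 and 75 in hTNFtg and 30, 35 and 40 with infliximab. All WT libraries were above all others, and the 19 counts of hTNFtg replicate 1 stand for 3 reads. The log2 fold change from WT to hTNFtg was -2.03 (limma, SE 0.52, adjusted p = 0.157; edgeR, adjusted p = 0.000587), and it was -1.62 and still past the rule without that library.

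Fas (chr19:34290659-34327770, plus strand), the receptor of Fas ligand, had 91, 81 and 55 normalized counts in WT, 118, 170 and 149 in hTNFtg and 99, 96 and 135 with infliximab. All hTNFtg libraries exceeded all WT libraries, with a log2 difference of 0.95 (limma, SE 0.33, adjusted p = 0.394) that stayed just short of the fold required. Fas passed the rule when WT replicate 1, WT replicate 2 or hTNFtg replicate 1 was left out, with 1.09 without the last of these. It also passed with array weights. Tnfrsf10b, the mouse TRAIL receptor, ranged from 114 to 147 in WT, 148 to 206 in hTNFtg and 171 to 187 with infliximab, with a log2 difference between hTNFtg and WT of 0.43 (limma, SE 0.30, adjusted p = 0.726). Tnfrsf25 (DR3) ranged from 10 to 111 with overlapping groups, and Edar, the receptor of ectodysplasin A1, from 0 to 6.

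Of the receptors without a death domain, TNFR2, XEDAR and Tnfrsf26 rose in hTNFtg SFs. Tnfrsf1b (TNFR2; chr4:145213463-145246870, minus strand) had 46, 49 and 58 normalized counts in WT, 137, 99 and 112 in hTNFtg and 123, 71 and 146 with infliximab. No library of either hTNFtg group fell within the WT range, and the log2 fold change from WT to hTNFtg was 1.16 (limma, SE 0.33, adjusted p = 0.216; edgeR, adjusted p = 0.166).

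Eda2r (XEDAR; chrX:97333840-97377216, minus strand), a receptor for the ectodysplasin A2 isoform, had 35, 17 and 13 normalized counts in WT, 93, 49 and 40 in hTNFtg and 52, 53 and 72 with infliximab. WT lay below both other groups without overlap. Its log2 fold change from WT to hTNFtg was 1.47 (limma, SE 0.52, adjusted p = 0.40; edgeR, adjusted p = 0.163), and it no longer passed the rule without WT replicate 2 (1.36), WT replicate 3 (1.18) or hTNFtg replicate 1 (1.12). Tnfrsf26 (chr7:143607659-143628722, minus strand), a receptor beside the TRAIL decoy receptors Tnfrsf22 and Tnfrsf23 whose own ligand is not established, had 1, 7 and 5 normalized counts in WT, 12, 20 and 78 in hTNFtg and 14, 0 and 51 with infliximab. Those 12 counts of hTNFtg replicate 1 stand for 2 reads, and the infliximab group spanned the WT values. Its log2 fold change from WT to hTNFtg was 2.60 (limma, SE 0.88, adjusted p = 0.369; edgeR, adjusted p = 9.85e-05), and it no longer passed the rule without WT replicate 1 (2.01) or without hTNFtg replicate 3 (1.85), the highest library, nor with all 9 libraries in a joint fit. Reads of Tnfrsf22, Tnfrsf23 and Tnfrsf26 could in part be shared, since the genes are related in sequence, and an antisense gene overlaps all of them. Whether the counting used the strand is not given in the sources used here, so reads of a gene and of an overlapping gene on the other strand cannot be told apart.

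Among the other receptors, Ltbr and Tnfrsf12a were read deeply and did not differ past the rule. Ltbr, the lymphotoxin β receptor, had 1203, 863 and 986 normalized counts in WT, 610, 885 and 614 in hTNFtg and 1302, 1146 and 940 with infliximab. Tnfrsf12a (Fn14, the TWEAK receptor) ranged from 268 to 949, both extremes being hTNFtg libraries. Relt ranged from 7 to 44, Tnfrsf22 from 9 to 21 and Tnfrsf23 from 74 to 214. Tnfrsf4 (OX40), Tnfrsf9 (4-1BB), Tnfrsf14 and Tnfrsf18 (GITR) did not exceed 15 in any library. Tnfrsf8, Tnfrsf13c and Tnfrsf17 were at the floor in all groups, and so was Cd27, a costimulatory receptor of lymphocytes, which passed the rule as lower with means of 2 ± 1 in WT and 0 in hTNFtg (SD, n = 3 each) and is given no fold for that reason.

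Of the 7 TRAF adaptors, Traf3 and Traf1 rose in hTNFtg SFs. Traf3 (chr12:111166370-111267153, plus strand, overlapped by a gene on the other strand), which with TRAF2 and the cIAPs directs the kinase NIK to degradation, had 104, 111 and 100 normalized counts in WT, 293, 251 and 285 in hTNFtg and 161, 132 and 140 with infliximab. None of the 3 groups overlapped, with infliximab between WT and hTNFtg, and even hTNFtg replicate 1 held 47 Traf3 reads. The log2 fold change from WT to hTNFtg was 1.39 (limma, SE 0.28, adjusted p = 0.0605; edgeR, adjusted p = 0.0195), with means of 105 ± 5.57 and 276 ± 22.3 (SD, n = 3 each), and it ranged from 1.34 to 1.45 when each library was left out. The adjusted p ranged from 0.00559 to 0.478 over the alternative settings.

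Traf1 (chr2:34941750-34961772, minus strand), an adaptor without a RING domain that is a known NF-κB target, had 1, 2 and 3 normalized counts in WT, 31, 17 and 9 in hTNFtg and 10, 13 and 9 with infliximab. WT, at 1 to 4 reads per library, did not overlap with the other groups. The log2 fold change from WT to hTNFtg was 2.64 (limma, SE 0.82, adjusted p = 0.285; edgeR, adjusted p = 0.0329). The 31 counts of hTNFtg replicate 1 stand for 5 reads, and without that library the log2 fold change was 2.22 and still past the rule. Traf2 (chr2:25517982-25546940, minus strand), the adaptor that brings cIAPs to the TNFR1 complex, had 42, 30 and 45 normalized counts in WT, 44, 51 and 64 in hTNFtg and 28, 38 and 30 with infliximab, with a log2 difference between hTNFtg and WT of 0.44 (limma, SE 0.39, adjusted p = 0.726). Traf4 ranged from 56 to 72 in WT, 56 to 178 in hTNFtg and 95 to 135 with infliximab. Traf5 ranged from 11 to 37, Traf6 from 21 to 41 and Traf7 from 88 to 184, and none of these 4 passed the rule between hTNFtg and WT with all libraries. Traf4, at a log2 difference of 0.77, passed it without hTNFtg replicate 1 (1.25), which held 9 of its reads.

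Of the 8 death domain adaptors, kinases, caspase and inhibitors, Birc3 rose in hTNFtg SFs. Birc3 (cIAP2; chr9:7848699-7873186, minus strand), a ubiquitin ligase of the TNFR1 complex and a known NF-κB target, had 28, 32 and 15 normalized counts in WT, 125, 61 and 51 in hTNFtg and 35, 65 and 46 with infliximab. Both hTNFtg groups lay above all WT libraries, and the log2 fold change from WT to hTNFtg was 1.58 (limma, SE 0.48, adjusted p = 0.270; edgeR, adjusted p = 0.0497). Without hTNFtg replicate 1, the highest library, it was 1.19 and still past the rule.

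The proximal TNFR1 partners showed no difference past the rule. Tradd, the first adaptor, had 58, 95 and 81 normalized counts in WT, 69, 70 and 75 in hTNFtg and 72, 67 and 60 with infliximab, and its log2 difference between hTNFtg and WT was -0.10 with a 95% interval of -0.84 to 0.64 (limma, adjusted p = 0.930). Ripk1, the kinase that joins survival and death signalling, had 111, 101 and 77 in WT, 131, 108 and 91 in hTNFtg and 104, 90 and 138 with infliximab, at a log2 difference of 0.19 with an interval of -0.51 to 0.89 (limma, adjusted p = 0.825). Both intervals lie within 1 in either direction on the log2 scale.

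Casp8, the initiator caspase, had 6, 14 and 18 normalized counts in WT, 56, 9 and 12 in hTNFtg and 33, 16 and 22 with infliximab. Its high hTNFtg value is that of the shallow replicate 1, at 9 reads, and without it the log2 difference between hTNFtg and WT went from 0.63 to -0.14. Cflar (cFLIP), the inhibitor of caspase-8, had 202, 140 and 132 in WT, 324, 270 and 162 in hTNFtg and 308, 270 and 273 with infliximab, with a log2 difference between hTNFtg and WT of 0.64 (limma, SE 0.34, adjusted p = 0.726). Fadd ranged from 13 to 31, Ripk3 from 25 to 71 and Birc2 (cIAP1) from 137 to 243, with overlapping groups.

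**Figure D2:**
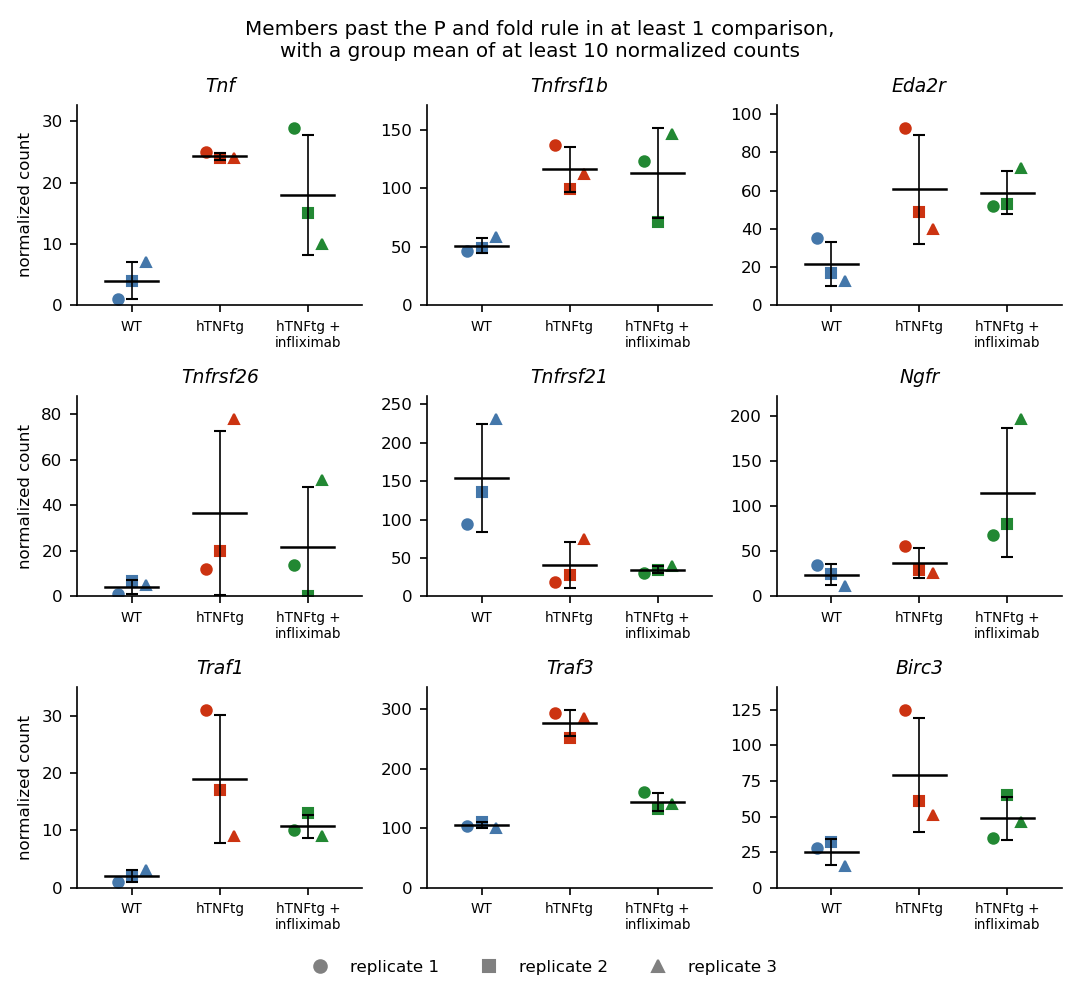
Normalized counts of 9 members in each of the 9 libraries, 1 panel per gene, with WT, hTNFtg and hTNFtg + infliximab on the horizontal axis. Symbols are replicates, horizontal bars group means and vertical bars SD (cut at 0), and Traf3 is the gene whose 3 groups are fully apart, at 100 to 111, 251 to 293 and 132 to 161.

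**Figure D3:**
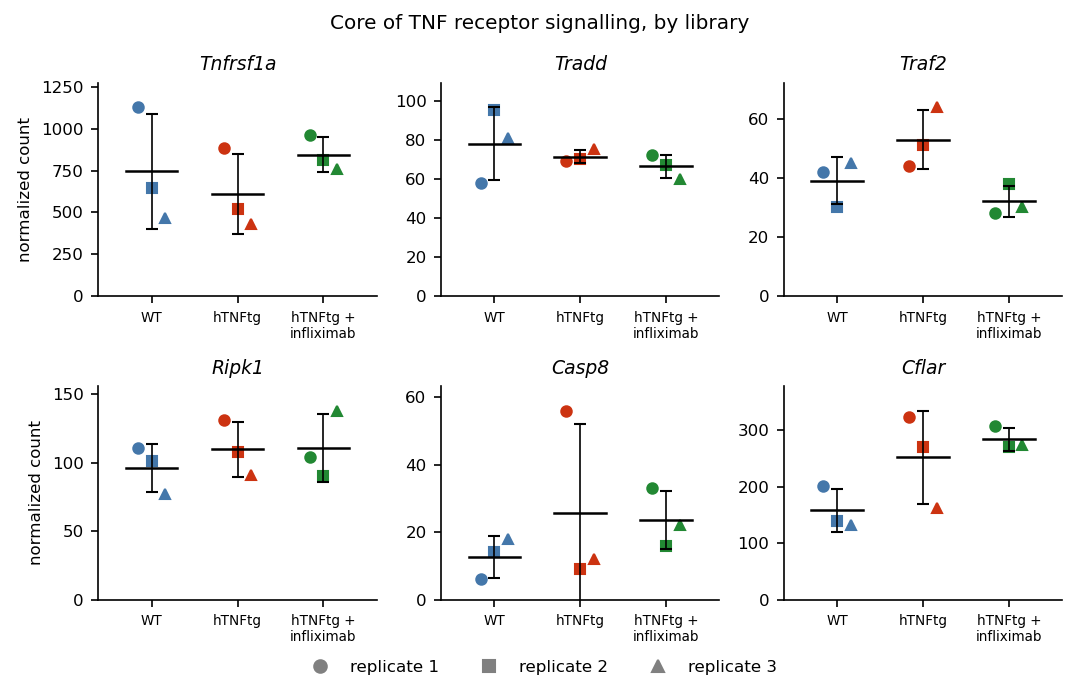
Normalized counts of Tnfrsf1a, Tradd, Traf2, Ripk1, Casp8 and Cflar in each of the 9 libraries, by group. Symbols are replicates, horizontal bars group means and vertical bars SD (cut at 0), and WT and hTNFtg overlap in every panel.

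The second comparison, hTNFtg SFs with and without infliximab, addresses what blocking human TNF does to the families within 48 hours. Ngfr rose with infliximab, and no member fell past the rule, while Traf3 and Traf2 were lower and Ltbr higher in every treated library than in every untreated one. Thus 1 of the 56 members tested was raised and 0 lowered, against 1.49% and 0.936% of the 28540 genes tested. In limma 0 members had an adjusted p under 0.05, against 0.0% of genes, and 3 an unadjusted P under 0.05 (Ngfr, Traf3 and Ltbr), against 3.59%. With edgeR 1 member, Ngfr, had an adjusted p under 0.05, against 0.578% of genes. The groups did not overlap for 2 members that were higher and 2 that were lower, against 3.99% and 3.44% of genes. In either direction 1.79% of the members passed the rule, against 2.43% of genes. By the rule and by overlap, the members as a set were thus near the shares of all genes. The untreated libraries are those of the first comparison, so a high hTNFtg value enters both.

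Ngfr (p75NTR; chr11:95568818-95587735, minus strand), a death domain receptor for neurotrophins, had 35, 25 and 12 normalized counts in WT, 56, 29 and 26 in hTNFtg and 68, 80 and 197 with infliximab. All treated libraries were above all others, and the log2 fold change with infliximab was 1.53 (limma, SE 0.46, adjusted p = 0.803; edgeR, adjusted p = 0.00299). Ngfr did not pass the rule with a block for the replicate number, nor without infliximab replicate 3 (1.06), the highest library. That library is also the one with 678 normalized counts over the hepatocyte genes, and the part of other cells or RNA in its Ngfr value was not tested.

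Traf3, at 161, 132 and 140 with infliximab against 293, 251 and 285 without, had a log2 difference of -0.93 (limma, SE 0.27, adjusted p = 0.803; edgeR, adjusted p = 0.499), just short of the fold required. It passed the rule without hTNFtg replicate 2 (-1.0) or without infliximab replicate 1 (-1.01). Traf2 differed by -0.71 (limma, SE 0.40, adjusted p = 0.803) and Ltbr by 0.69 (limma, SE 0.30, adjusted p = 0.803).

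The other members that had risen in hTNFtg SFs did not differ past the rule between treated and untreated libraries. The log2 difference with infliximab was -0.54 for Tnf with a 95% interval of -1.77 to 0.69, -0.08 for Tnfrsf1b with -0.82 to 0.65, and 0.04 for Eda2r with -0.82 to 0.90 (limma). For Traf1 it was -0.63 with an interval of -2.11 to 0.84, for Birc3 -0.62 with -1.53 to 0.29 and for Tnfrsf26 -1.60 with -4.14 to 0.95 (limma). The interval of Tnfrsf21, at 0.02, was -1.10 to 1.14. Of these 7 intervals, those of Tnfrsf1b and Eda2r leave out a change of 1 on the log2 scale in either direction, and the others do not. Of the 56 members tested, the median difference was -0.08 as fitted and 0 with members at the floor set to their bound, where the median of all genes was 0.

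**Figure D4:**
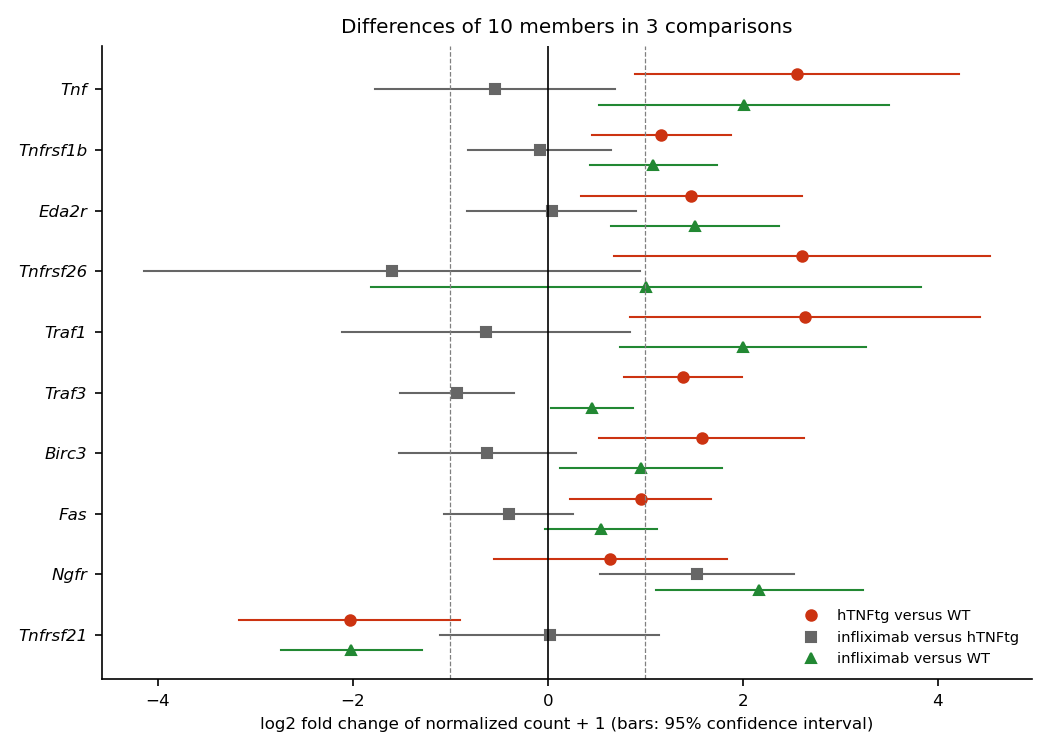
Log2 fold change of normalized count plus 1 with its 95% confidence interval (limma) for 10 members in the 3 comparisons, with dashed lines at the fold that the rule requires. With infliximab against untreated hTNFtg SFs (gray squares), the intervals of Traf3 and Ngfr lie apart from 0 and those of the other 8 members include 0.

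The third comparison, infliximab-treated hTNFtg with WT SFs, shows which differences from WT were present after treatment. It shares its libraries with both others and is given side by side with them, not as independent evidence. Tnf, Tnfrsf1b, Eda2r, Traf1 and Ngfr were raised, along with the low Cd40 and Tnfrsf13b, and Tnfrsf21 and the low Tnfrsf19 were lowered, so that 7 of 54 members were raised and 2 lowered, against 3.86% and 2.95% of the 28243 genes tested. The groups did not overlap for 15 members that were higher and 3 that were lower, against 7.14% and 7.07% of genes, and 14 members were at an unadjusted P under 0.05, against 11.9%. In limma 1 member, Tnfrsf21, had an adjusted p under 0.05, against 0.74% of genes, and in edgeR 9 had one (Cflar, Eda2r, Ngfr, Tnf, Tnfrsf1b, Tnfrsf21, Tnfrsf23, Tnfrsf26 and Traf4), against 4.68% of genes. The median difference of the members was 0.24 as fitted and 0.18 with members at the floor set to their bound, where the median of all genes was 0.

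Tnfrsf21, at 30, 35 and 40 normalized counts against 94, 136 and 231 in WT, had a log2 fold change of -2.01 (limma, SE 0.32, adjusted p = 0.0306), close to the -2.03 of untreated hTNFtg SFs. Its adjusted p ranged from 6.63e-11 to 0.407 over the alternatives and was not under 0.05 when any library was left out. In those fits at most 1 gene of all tested had an adjusted p under 0.05, against 209 with all libraries. Tnfrsf21 stayed past the P and fold rule in each of them. Ngfr differed from WT by 2.17 (limma, SE 0.47, adjusted p = 0.0849), against 0.64 in untreated hTNFtg SFs. Eda2r differed by 1.51 (limma, SE 0.38, adjusted p = 0.129), Traf1 by 2.0 (limma, SE 0.56, adjusted p = 0.169), Tnf by 2.01 (limma, SE 0.66, adjusted p = 0.247) and Tnfrsf1b by 1.08 (limma, SE 0.29, adjusted p = 0.153). Tnf did not pass the rule without infliximab replicate 1 (1.62) or with a block for the replicate number. Tnfrsf1b did not pass it without infliximab replicate 1 (0.99), without infliximab replicate 3 (0.87) or with array weights (0.997).

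Traf3 and Birc3, which rose in untreated hTNFtg SFs, differed from WT by 0.45 (limma, SE 0.19, adjusted p = 0.381) and 0.96 (limma, SE 0.37, adjusted p = 0.339) after treatment and did not pass the fold with all libraries. Birc3 passed the rule without WT replicate 2 (1.16) or infliximab replicate 1 (1.17). Cflar, at 0.86, was above WT in every treated library (limma, SE 0.21, adjusted p = 0.111; edgeR, adjusted p = 0.0165), and so were Traf4 at 0.88 (limma, SE 0.23, adjusted p = 0.142) and Tnfrsf23 at 0.92 (limma, SE 0.24, adjusted p = 0.142), none of which reached the fold required with all libraries. Each of these 3 passed the rule when a library was left out, Cflar without WT replicate 1 (1.05), Traf4 without infliximab replicate 1 (1.05) and Tnfrsf23 without WT replicate 1 or infliximab replicate 2. Tnfrsf26, at 1.01 between infliximab and WT, passed it without infliximab replicate 2 (2.61) or with edgeR (2.35) and was at -0.24 without infliximab replicate 3.

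Of the lowered and raised receptors, 3 that passed the rule in this comparison had group means under 10. Cd40, the receptor of CD40 ligand, averaged 0.333 ± 0.577 normalized counts in WT, 5.33 ± 6.11 in hTNFtg and 3.67 ± 2.08 with infliximab (SD, n = 3 each), at least 1.45-fold higher with infliximab than WT when WT is set to 3 reads per library, and it did not pass the rule with a pseudocount of 5 or with all 9 libraries in a joint fit. Tnfrsf13b (TACI), a receptor for BAFF and APRIL, averaged 0.667 ± 1.15, 3 ± 3 and 7.67 ± 3.21, at least 3.04-fold higher by the same measure. Tnfrsf19 (TROY) averaged 2.67 ± 1.53 in WT, 0.333 ± 0.577 in hTNFtg and 0 with infliximab, too low for a fold.

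Beyond the members, the NF-κB feedback genes Nfkbia, Nfkbie and Tnfaip3 rose in hTNFtg SFs. Other regulators of NF-κB did not pass the rule, such as Cyld (-0.06), Otulin (-0.06) and Tnip2 (0.23). Some genes that did not pass came closer to the fold, such as Nfkb2 (0.995) and Ikbke (0.83). Of a list of 73 other genes of TNF receptor signalling, 12 were raised between hTNFtg and WT and 0 lowered, against 3.35% and 3.04% of all genes tested, with a median log2 difference of 0.16 and an adjusted p under 0.05 in limma for 2 (Nfkbia and Nfkbie), against 0.48% of genes. Raised were the IκB family genes Nfkbia, Nfkbib, Nfkbie and Nfkbid, the subunits Nfkb1 and Relb, the A20 gene Tnfaip3, its partner Tnip3, the necroptosis effector Mlkl, Tnfaip8, Fos, and Rhbdf2, which encodes a partner of the TNF-shedding protease. Fos overlapped between the groups, at 22, 9 and 1 in WT and 118, 15 and 27 in hTNFtg, with its highest value in the shallow hTNFtg replicate 1. In that library the 19 counts of Nfkbid and of Rhbdf2 are at the worth of 3 reads. Values without that library are not given for the genes of this list. Tnip1, another partner of A20 and singled out after its values were seen, was lower without passing the fold, at 1611 to 1881 normalized counts in WT, 803 to 1016 in hTNFtg and 811 to 1134 with infliximab, with a log2 difference between hTNFtg and WT of -0.99 (limma, SE 0.30, adjusted p = 0.277). The part of the macrophage and myeloid marker sum, which was higher in both hTNFtg groups, in the values of these genes was not tested. Nfkbia had 302, 267 and 319 normalized counts in WT, 953, 1313 and 1714 in hTNFtg and 708, 600 and 859 with infliximab, a log2 fold change from WT to hTNFtg of 2.12 (limma, SE 0.31, adjusted p = 0.0148). Nfkbie had 11, 24 and 14, then 75, 113 and 151, then 44, 27 and 48, and its log2 fold change from WT to hTNFtg was 2.73 (limma, SE 0.45, adjusted p = 0.0237). For both genes the 3 groups were apart, with infliximab in between. Tnip3 was at 0 in all WT libraries and at 19, 14 and 2 in hTNFtg. Within rounding, its values in hTNFtg replicate 1 and hTNFtg replicate 3 do not exceed the worth of 3 reads, so no fold is given.

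With infliximab, 4 of the 73 were lowered against untreated hTNFtg SFs and 0 raised, against 0.936% and 1.49% of all genes tested, with a median of -0.12. They were Nfkbie at -1.47 (limma, SE 0.39, adjusted p = 0.803), Tnfaip3 at -1.52 (limma, SE 0.69, adjusted p = 0.803), Nfkbib at -1.17 (limma, SE 0.51, adjusted p = 0.803) and Mlkl at -1.10 (limma, SE 0.45, adjusted p = 0.803). Against WT, 6 of 73 were raised after treatment, among them Nfkbia, Nfkbie, Tnip3 and Rhbdf2, with an adjusted p under 0.05 in limma for Nfkbia and Tnip3, and 1, the ectodysplasin gene Eda, was lowered, against 3.86% raised, 2.95% lowered and 0.74% with such an adjusted p among all genes tested. Eda had 28, 17 and 17 normalized counts in WT, 12, 7 and 5 in hTNFtg and 15, 7 and 4 with infliximab, while its receptor gene Eda2r was higher in both hTNFtg groups than in WT.

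Many members lie beside each other on the genome: 28 of the 59 fall into 11 groups with gaps of at most 200 kb, and neighbors are given side by side here. Tnf lies between Ltb and Lta within 10913 bases of chromosome 17, and Tnf rose in hTNFtg SFs while Ltb and Lta had at most 7 normalized counts in any library. Birc2 and Birc3 lie within 54960 bases of chromosome 9, and the log2 difference between hTNFtg and WT was -0.13 for Birc2 and 1.58 for Birc3. Within 78214 bases of chromosome 7 the differences were 2.60 for Tnfrsf26, 0.62 for Tnfrsf22 and 0.36 for Tnfrsf23. Cflar and Casp8, on chromosome 1, had 0.64 and 0.63, and Casp8 was at -0.14 without hTNFtg replicate 1. Tnfrsf1b rose while its neighbor Tnfrsf8 was at the floor in all groups, and Tnfrsf1a and Ltbr, both at 428 normalized counts or more in every library, lie in 1 group with Cd27, which was at the floor.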

How the data were processed

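QuantSeq 3′ mRNA libraries of cultured SFs were sequenced on the Ion Proton. Per the methods of the study, the authors mapped reads with TopHat2 at default settings and the remaining reads with Bowtie2 (very sensitive) to mm10, counted them with GenomicRanges, normalized the counts and tested them with DESeq, all through metaseqR; versions are not given in the sources used here. The values are deposited scores, that is normalized counts that the authors rounded to whole numbers, and for hTNFtg replicate 1 a deposited signal from which whole reads could be recovered. What 1 read is worth was estimated per library, so read numbers are approximate. The tables hold 24 other columns of per-sample values, which were not used, and columns of the authors' own comparisons (fold changes, P values, FDR and means), which were not used either.

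Each comparison was fitted on its 6 libraries with limma 3.58.1 (R 4.3.3; lmFit, eBayes with trend) on log2(normalized count + 1), over genes above 0 in at least 1 library. To pass, a gene needed an unadjusted P below 0.05 together with a log2 difference of 1 or more in either direction; adjusted p is Benjamini-Hochberg over all genes tested. Intervals are 95% confidence intervals of the limma fit. The limma fit was tested on simulated data, as was the estimate of what 1 read is worth. Alternatives were pseudocounts of 0.5 and 5, a mean of at least 10, quantile and median ratio scaling, robust eBayes, array weights, a block for the replicate number, a joint fit of all 9 libraries, edgeR 4.0.16 (quasi-likelihood) on approximate reads, and each library left out. Python 3.11.15 and matplotlib 3.10.9 were used for tables and plots.

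Values in every library are given for members past the rule in at least 1 comparison with a group mean of at least 10, and for Tnf, Tnfrsf1a, Tnfrsf1b, Tradd, Traf2, Ripk1, Casp8 and Cflar. Members past the rule with lower means are given by their means, and genes of the pathway list where they passed the rule with a group mean of at least 10. Not every gene of the lists is reported here. Fas, Ltbr, Tnfsf10 and Tnfsf14 were singled out after their values were seen. The members and lists were chosen with earlier results of these data known.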

Additional observations from a re-analysis of the deposited data

How the results depend on the processing

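Of 185 values that the settings other than leaving out a library gave for the 19 differences past the rule, 176 stayed past it, 9 did not and 0 changed sign. The 9 were Tnfrsf26 between hTNFtg and WT and Cd40 between infliximab and WT with all 9 libraries, Cd27 between hTNFtg and WT with a pseudocount of 5 or edgeR, Cd40 and Tnfrsf19 between infliximab and WT with a pseudocount of 5, Tnfrsf1b between infliximab and WT with array weights, and Ngfr and Tnf with the replicate block. Between hTNFtg and WT, 7 members were raised, and 6 to 11 when each library was left out (11 without hTNFtg replicate 1, which added Cd40, Fas, Tnfrsf13b, Tnfrsf17 and Traf4 and lost Eda2r). Over all genes, 956 of 28522 were raised with all libraries and 1510 of 28244 without hTNFtg replicate 1. The 2 lowered members were 1 with a pseudocount of 5, a mean of at least 10 or edgeR, 4 with all 9 libraries, and 2 to 3 when each library was left out. Over all 28522 genes, 867 were lowered with the main settings, 606 with a pseudocount of 5, 924 with edgeR and 1087 with all 9 libraries. With a mean of at least 10 it was 525 of 13634 genes. Between infliximab and hTNFtg, the 1 raised member was 3 with array weights, 0 with the replicate block and 1 to 1 when each library was left out, although without infliximab replicate 3 it was Tnfsf13os and not Ngfr. The 0 lowered members were 2 with array weights, 1 with robust eBayes, all 9 libraries or edgeR, and 0 to 2 when each library was left out. Over all 28540 genes, 426 were raised and 267 lowered with the main settings, and 754 and 1390 with array weights. Lowered were 299 genes with robust eBayes, 450 with all 9 libraries and 710 with edgeR. Between infliximab and WT, the 7 raised members were 4 with a mean of at least 10 and 6 to 11 when each library was left out, and the 2 lowered were 1 with a pseudocount of 5 or a mean of at least 10 and 2 to 3 when each library was left out. Over all 28243 genes, 1090 were raised and 833 lowered with the main settings, and 615 and 443 with a pseudocount of 5. With a mean of at least 10 it was 595 and 461 of 13470 genes. Without infliximab replicate 2, which gave the 11 raised members, 1209 of 27528 genes were raised. With a mean of at least 10, genes under that mean over the libraries compared were not tested. Of the members past the rule, this removed Cd27 between hTNFtg and WT, and Cd40, Tnfrsf13b, Traf1 and Tnfrsf19 between infliximab and WT. The causes of the other changes were not tested.

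The replicate numbers were not taken to pair the samples, since not every correlation was over 0.1: the correlation of same-numbered libraries ranged from -0.147 to 0.353 over 9 pairs, and 3 of the 9 correlated better with another number. The 3 pairs of hTNFtg and infliximab, at 0.0698, 0.197 and 0.265, each correlated best with their own number, a hint from the data and not from the design. With the replicate block, 7 members were raised between hTNFtg and WT, 0 between infliximab and hTNFtg, where Ngfr no longer passed at the same log2 fold change of 1.53, and 6 between infliximab and WT, where Tnf no longer passed. Over all genes, 855 of 28522, 374 of 28540 and 968 of 28243 were raised with this block, in the same order.

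The sign was followed for the 19 members named by the rule for named genes, and other members are not listed here; the differences that changed sign were all short of the P and fold rule. Casp8 between hTNFtg and WT was -0.19 with array weights. Between infliximab and hTNFtg, Ripk1 was -0.033 with array weights, Tnfrsf1b 0.00499 with array weights and 0.041 with edgeR, Tnfrsf21 -0.0027 with a pseudocount of 5 and -0.31 with edgeR, and Cd40 -0.10 with a pseudocount of 5, -0.23 with quantile scaling, -0.20 with array weights and -0.97 with edgeR. When each library was left out, the range for these members included both signs between hTNFtg and WT for Casp8 (-0.14 to 1.11), Tnfrsf1a (-0.56 to 0.087) and Tradd (-0.30 to 0.056). Between infliximab and hTNFtg it did for Casp8 (-0.20 to 1.05), Cflar (-0.063 to 0.44), Eda2r (-0.21 to 0.39), Ripk1 (-0.17 to 0.14), Tnfrsf1b (-0.30 to 0.22), Tnfrsf21 (-0.39 to 0.57), Tnfrsf26 (-2.85 to 0.0048) and Cd40 (-0.88 to 0.97), and between infliximab and WT for Tnfrsf1a (-0.022 to 0.62) and Tnfrsf26 (-0.24 to 2.61). The shallow hTNFtg replicate 1 limits what can be said of members under 18.7 normalized counts there.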
